A study of Mus musculus with 22 samples.

Results

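The 9 genes described here encode surface molecules through which blood progenitors find, enter and stay in the bone marrow: the chemokine receptor Cxcr4, the selectin ligand Selplg, the integrin subunits Itga4, Itgb1, Itgb2 and Itgal, the hyaluronan receptor Cd44, and the membrane proteins Cd47 and Cd9. They are 9 of the 21938 protein-coding genes annotated on chromosomes 1 to 19, X and Y, and were chosen by name. Each was described by the peaks of H3K27ac, an acetylated histone mark found at active promoters and enhancers, that overlapped the gene body or lay within 20 kb of it in GRCm38.

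Homing begins when selectins on the vessel wall bind the mucin-like Selplg protein and slow the cell. Chemokine signalling through Cxcr4, the receptor for the stromal chemokine Cxcl12, then switches integrins such as Itga4/Itgb1 and Itgal/Itgb2 to a state that binds Vcam1 and Icam1. Cd44 binds hyaluronan in the marrow matrix, Cd47 engages Sirpa on macrophages and inhibits engulfment, and Cd9 is a tetraspanin that associates with integrins in the membrane.

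The chromatin immunoprecipitation sequencing (ChIP-seq) libraries came from myeloid progenitors sorted as cKit-positive cells without Sca1 or lineage markers (KL cells) of C57BL/6 mice carrying scl-Cre-ERT and Bcorfl/y, named BcorΔE9-10 after recombination. The mice received 1 mg tamoxifen on each of 5 consecutive days at 3 to 6 months of age, which deletes exons 9 and 10 of the X-linked Bcor gene, and marrow was taken 20 weeks later. The Cre is driven from a stem cell enhancer of the scl locus, so deletion starts in stem cells and is inherited by the KL cells. Of the 22 samples of the series, the 3 H3K27ac libraries of BcorΔE9-10 KL cells were analysed and the other 19 were not analysed here. No peak list of another genotype entered, so every peak was called in BcorΔE9-10 cells, and no effect of the deletion was measured. The control behind the fold enrichments was not given, so its genotype is not known. The deletion itself cannot be checked from peak lists. The labels number the libraries as replicates 1, 2 and 3, and the study took cells from 3 mice, but nothing ties each library to 1 mouse.

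Depth recovered from the peak lists, with fragments assumed to be 200 bp long, was 18.0 to 19.3 M reads. The lists held 23410 to 25963 peaks per library. Called summits held at least 8 or 9 fragments, so acetylation below that was not detectable. As a check of the cells, 9 of 10 progenitor genes had a peak at an own transcription start site (TSS) in all 3 libraries, against 0 of 7 mature neutrophil, 0 of 6 erythroid, 2 of 5 megakaryocyte, 1 of 11 stromal and endothelial and 0 of 6 other tissue genes. Kit, the receptor the sort used, had fold enrichments of 9.90, 9.59 and 9.83, and the myeloid factor genes Spi1 and Cebpa had means of 8.29 ± 1.21 and 7.96 ± 1.06 (SD, n = 3). The marked genes of the other lists were Gp9, Itga2b and Pdgfrb, and Camp, Ltf, Gata1, Hbb-bt, Cdh5, Kdr, Alb and Myh6 had no own-TSS peak. The part of cells outside the progenitors in the values given here was not tested. In a cell mixture, a weak peak in every cell and a strong peak in few cells cannot be told apart.

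The promoters differed in base composition, and 4 sequences are given because they carry that contrast. RefSeq promoter entries (GRCm38.p6) were matched for 6 of the 9 genes. Selplg, Itgb2 and Itgal had no matched entry. The first pair, Cxcr4 and Itgb1, held many CpG dinucleotides in the 250 bases upstream of the RefSeq start, and the second pair, Itga4 and Cd44, held few, at GC contents of 64% and 56.4% against 61.2% and 68%. Each is written 5′ to 3′ on the strand of the gene, and capitals mark matches to the motifs searched.
Cxcr4, chr1:128592300-128592549, minus strand: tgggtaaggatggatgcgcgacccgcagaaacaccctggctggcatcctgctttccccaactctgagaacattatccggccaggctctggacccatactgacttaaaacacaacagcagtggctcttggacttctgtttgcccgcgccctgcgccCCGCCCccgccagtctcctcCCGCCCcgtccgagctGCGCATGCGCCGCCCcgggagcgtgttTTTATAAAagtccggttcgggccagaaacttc
Itgb1, chr8:128685404-128685653, plus strand: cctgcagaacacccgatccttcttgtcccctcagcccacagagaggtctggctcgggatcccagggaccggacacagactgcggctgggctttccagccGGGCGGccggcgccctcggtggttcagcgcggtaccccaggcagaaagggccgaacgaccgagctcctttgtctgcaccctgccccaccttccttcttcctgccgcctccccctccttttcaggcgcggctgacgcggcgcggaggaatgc
Itga4, chr2:79255176-79255425, plus strand: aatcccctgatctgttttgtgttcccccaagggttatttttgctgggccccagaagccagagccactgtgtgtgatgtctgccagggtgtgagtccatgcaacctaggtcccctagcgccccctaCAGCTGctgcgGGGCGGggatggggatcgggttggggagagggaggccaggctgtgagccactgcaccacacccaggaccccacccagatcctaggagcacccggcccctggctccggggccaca
Cd44, chr2:102901666-102901915, minus strand: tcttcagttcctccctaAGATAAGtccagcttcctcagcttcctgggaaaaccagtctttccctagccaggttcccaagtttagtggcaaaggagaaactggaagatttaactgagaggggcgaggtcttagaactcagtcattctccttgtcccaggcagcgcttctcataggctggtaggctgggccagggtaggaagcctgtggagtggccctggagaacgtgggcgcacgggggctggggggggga

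The Cxcr4 stretch held 19 CpGs, a ratio of observed to expected CpG of 0.838. The Itgb1 stretch held 21, with a ratio of 0.741. Those of Itga4 and Cd44 held 6 and 5, with ratios of 0.234 and 0.257. Over all 32841 promoter entries the median ratio was 0.374, so the pairs lay on opposite sides of it. The Cd47 and Cd9 promoters were on the CpG-rich side, with 30 and 16 CpGs and ratios of 0.916 and 0.761. GC content ran from 56.4% for Cd44 to 73.2% for Cd47, against a median of 52.4%.

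In the printed stretches the Cxcr4 capitals are 3 matches to GGGCGG, the letters bound by Sp/KLF factors, 2 overlapping matches to GCGCATGC (NRF1), and TATAAA on both strands (TATA box). Itgb1 had 1 GGGCGG match. Itga4 had 1 as well, with a match to an E-box written CAGCTG. Cd44 had 1 match to AGATAAG, letters of the GATA motif. GGGCGG, on either strand, occurred in 32.7% of all promoter entries and in 5 of the 6 matched here, all but Cd44. GCGCATGC occurred in 2.26% of all entries, TATAAA in 12.4%, CAGCTG in 13.0% and AGATAAG in 2.74%. Among the other motifs searched, the ETS letters CCGGAAGT occurred in 2.88% of all entries, the RUNX letters TGTGGTT in 4.40%, the C/EBP letters TTGCNNCAA in 1.74% and the Myb letters CAACTG in 11.1%, and none of the 6 matched promoters held them. The letters GACGTG, part of a hypoxia response motif, occurred in 5.20% of all entries and in the Cd47 promoter. A match of letters is a description of the sequence and was not tested as a bound site.

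Peaks at the genes' own start sites were then compared. A peak within 2.5 kb of any annotated TSS of the gene is called an own-TSS peak. Its fold enrichment, computed by the authors with MACS2, divides the signal at the peak's summit by a local background. The control behind that background was not given. Of the 9 genes, 7 had an own-TSS peak in all 3 libraries, whereas 43.9% of all protein-coding genes did. Itgb2 had none in any library, and Cd9 had one in replicates 2 and 3 only. The median of the 7 genes' mean fold enrichments was 8.95, against 10.2 over all 9637 genes with an own-TSS peak in every library.

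**Figure D1:**
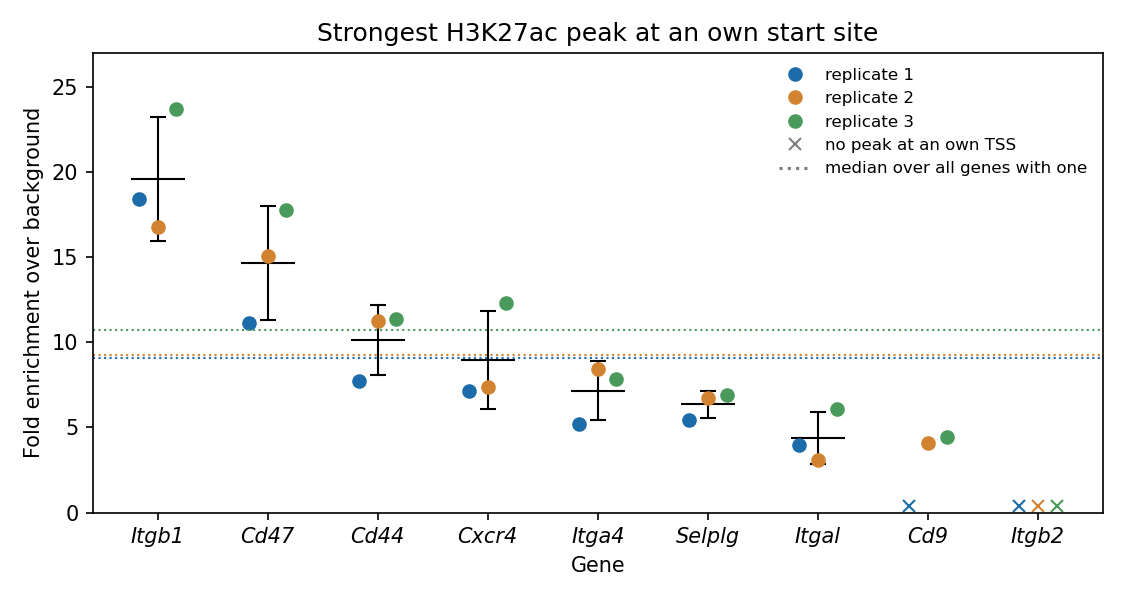
Fold enrichment (y axis, linear) of the strongest own-TSS H3K27ac peak of each gene (x axis) in replicates 1, 2 and 3 of BcorΔE9-10 KL cells, with the mean and SD where all 3 libraries had a peak; crosses mark libraries without one and dotted lines the median over all genes with one in that library. Itgb1 sits highest at 16.8 to 23.7, Itgal lowest among genes with 3 values at 3.10 to 6.09, and Itgb2 has only crosses.

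The beta-1 integrin subunit Itgb1, the partner of Itga4 and of many other alpha subunits, had the highest own-TSS peak. Its fold enrichment was 18.4, 16.8 and 23.7 in replicates 1, 2 and 3, a mean of 19.6 ± 3.63 (SD, n = 3). The summits held 70, 66 and 81 fragments, with exact Poisson 95% intervals of 54.6 to 88.4, 51.0 to 84.0 and 64.3 to 101. All 3 libraries placed Itgb1 between the 85.7th and 92.8th percentile of genes with an own-TSS peak. The acetylation formed 1 region, chr8:128685212-128686556, with its strongest summit in intron 1 at 505 bp past the reference TSS. Nothing else was called in the 87.5 kb window of the gene in any library.

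Cxcr4, a short gene of 4.10 kb, also had a single peak and no other in its window. Fold enrichment was 7.16, 7.40 and 12.3, a mean of 8.95 ± 2.89 (SD, n = 3), and the summits held 28, 36 and 49 fragments. Replicate 3 stood above the others: its interval for fragments, 36.3 to 64.8, overlapped that of replicate 2 (25.2 to 49.8) and that of replicate 1 (18.6 to 40.5). The region, chr1:128590632-128592259, lay wholly inside the gene body, with summits 708, 557 and 728 bp past the TSS, in intron 1. Over all genes with an own-TSS peak in every library, the median summit lay 195 bp, 196 bp and 195 bp past the reference TSS, and the upper quartile at 319, 315 and 305 bp, so the Cxcr4 summits were further into the gene than those of 3 in 4 marked genes. The intron 1 summit window, chr1:128591462-128591661, held 21 CpGs in 200 bases, a ratio of observed to expected of 1.01.

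Itga4, the alpha-4 subunit that pairs with Itgb1 to bind Vcam1, had own-TSS fold enrichments of 5.20, 8.43 and 7.87, a mean of 7.17 ± 1.73 (SD, n = 3). Its summits held 16, 28 and 31 fragments. Replicate 1 was the lowest, and its interval of 9.15 to 25.98 fragments overlapped that of each other library. The main region, chr2:79255019-79256780, spanned the TSS and reached into intron 2. Replicates 2 and 3 each had a second peak in intron 2. That of replicate 2 lay inside the main region at a fold enrichment of 3.96, and that of replicate 3 beyond it at 4.66. Both subunits of the Itga4/Itgb1 pair were thus marked at the promoter in all 3 libraries, with Itgb1 at higher fold enrichment than Itga4 in each.

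The leukocyte integrin pair Itgal and Itgb2, which together bind Icam1, had the weakest promoter marks of the integrin genes here. Itgal had own-TSS fold enrichments of 3.95, 3.10 and 6.09, a mean of 4.38 ± 1.54 (SD, n = 3). Its summits held 15, 12 and 25 fragments, close to the smallest numbers in the lists, and its peaks were 200, 240 and 356 bp wide. They lay at chr7:127296368-127296723 over exon 1. At a −log10 q of at least 5 the Itgal peak was left in 1 library only.

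Itgb2 had no own-TSS peak in any of the 3 libraries, like 50.1% of protein-coding genes. Peaks were called inside the gene, but each in 1 library only: in intron 1 in replicate 1 at fold enrichments of 4.44 and 3.998, and in intron 8 in replicate 2 at 4.63. Replicate 3 had no peak inside Itgb2. On both sides of it, start sites of other genes were marked in all 3 libraries: Fam207a at 8.34, 10.0 and 12.01, and Pttg1ip at 13.0, 10.3 and 16.9, so the missing Itgb2 peak stood between 2 marked promoters.

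Selplg, the P-selectin ligand, had own-TSS fold enrichments of 5.44, 6.75 and 6.88, a mean of 6.36 ± 0.797 (SD, n = 3), the smallest SD of the 7 genes. Its summits held 20, 26 and 27 fragments. The peak found in all 3 libraries, chr5:113830010-113830473, lay in intron 1 of the reference transcript. Of its other own-TSS peaks each was found in 1 library, at fold enrichments of 4.05, 4.63 and 3.11, which is a scatter of weak calls over intron 1 and the upstream transcript start.

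Cd44 and Cd47 carried strong promoter peaks with further peaks beside them. For Cd44 the strongest own-TSS peak had fold enrichments of 7.75, 11.3 and 11.4, a mean of 10.1 ± 2.06 (SD, n = 3), at chr2:102900294-102901946. A second own-TSS region 2041 bp past the TSS, in intron 1, was found in all 3 libraries at 4.44, 5.95 and 5.53. The second region also lies near Gm23731, an annotated small nuclear RNA gene, and so does the strongest own-TSS peak in replicates 2 and 3. The deposited lists give no strand by which to tell the genes apart.

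For Cd47 the strongest own-TSS peak had fold enrichments of 11.1, 15.1 and 17.8, a mean of 14.7 ± 3.35 (SD, n = 3). Replicate 3 was highest and replicate 1 lowest, with 70 and 42 fragments at the summit and overlapping intervals of 54.6 to 88.4 and 30.3 to 56.8. The Cd47 promoter peak was 2380, 1905 and 2799 bp wide. These widths lay at the 99.6th, 97.3rd and 99.5th percentile of the widest own-TSS peaks of all genes, the widest of the 9 genes here. A transcript start further upstream was marked as well: the region chr16:49799575-49800402 with its summit 55.4 kb upstream of the reference TSS had 4.54, 5.60 and 6.35, about the height of the Selplg promoter. The antisense gene Gm15518 starts within 2.5 kb of that region too.

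Cd9, the tetraspanin, had no own-TSS peak in replicate 1. In replicate 2 the strongest reached 4.11 with 12 fragments, 468 bp past the reference TSS. In replicate 3 it reached 4.41 with 13 fragments, at the start of a shorter non-coding transcript 17359 bp downstream, while the promoter itself reached 3.43. The Cd9 promoter region, chr6:125494147-125494580, was thus found in 2 libraries at low fragment numbers, beside the start of the gene Gm26728 on the other strand.

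Ordered by mean own-TSS fold enrichment, the genes ran Itgb1, Cd47, Cd44, Cxcr4, Itga4, Selplg and Itgal. Neighbours in this order did not separate: in each of the 6 neighbouring pairs the ranges over the 3 libraries overlapped. Itgb1 exceeded Cd47 in 3 of 3 libraries by 0.43 ± 0.28 on the log2 scale (SD, n = 3, exact sign-flip p = 0.25, adjusted p = 0.50 over 6 pairs). That p is the smallest that 3 libraries allow in a two-sided test. The same holds for Cd47 over Cd44 by 0.53 ± 0.11 and Selplg over Itgal by 0.59 ± 0.49. The pairs and their direction were set by sorting the same values that were tested, so these p-values carry no weight for the order. Some genes further apart in the order overlapped as well, namely Cd47 with Cxcr4, Cd44 with Itga4, and Itga4 with Itgal. Others did not: the lowest Itgb1 value, 16.8, was above the highest Cd44 value, 11.4, and the lowest Cd44 value, 7.75, was above the highest Itgal value, 6.09.

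Height and width of the promoter peaks ranked differently in several of the genes. Cxcr4 stood at a mean percentile of 43.3 by fold enrichment and 92.5 by width, with peaks of 1472, 1610 and 1527 bp, and it was above the 90th percentile of width in each library. Itga4 stood at 31.4 by height and 90.7 by width, with peaks of 1324, 1317 and 1753 bp. Cd44 stood at 52.2 and 81.8. Cxcr4, Itga4 and Cd44 therefore had broad peaks of ordinary or low height, Itgb1 had a high peak of somewhat lower width rank (88.7 and 84.1), and Selplg and Itgal were low on both, at 24.7 and 23.2 for Selplg and 8.19 and 5.10 for Itgal. The median width over all genes with an own-TSS peak was 677, 714 and 737 bp in the 3 libraries.

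**Figure D2:**
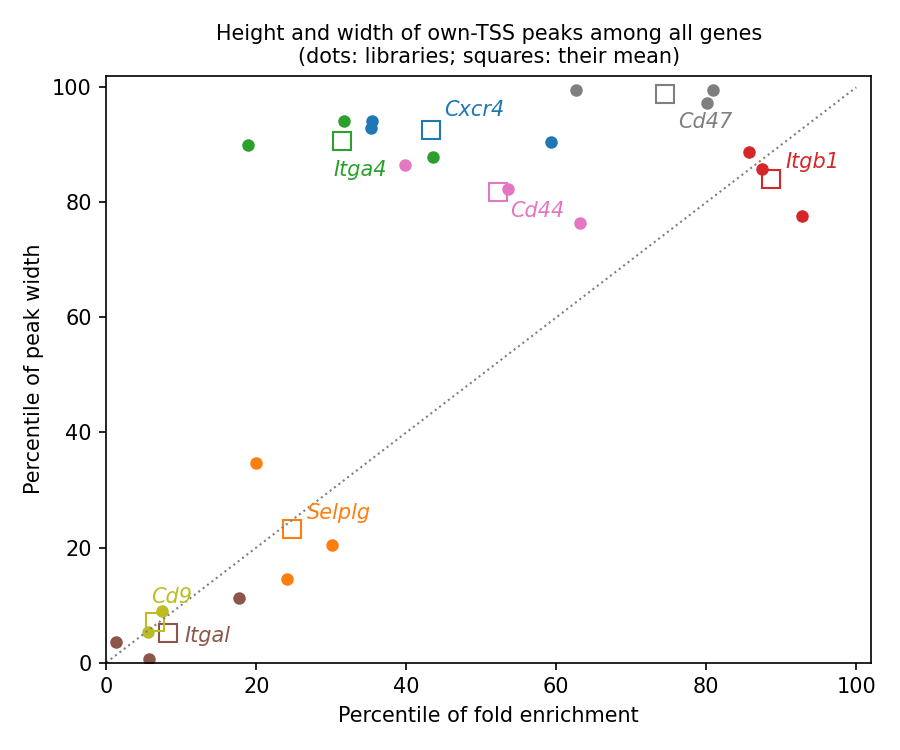
Percentile of the fold enrichment (x axis) and of the width (y axis) of own-TSS peaks among all protein-coding genes with one in the same library, for each gene and library (dots) with the mean over libraries (squares); the dotted line marks equal percentiles. Cxcr4, Itga4, Cd44 and Cd47 lie above the line in all 3 libraries, and Itgal and Cd9 lie in the lower left corner.

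Distal peaks, those over 2.5 kb from every annotated TSS of any gene, were examined next, since acetylation there marks candidate enhancers. Of the 9 genes, 4 (Selplg, Cd44, Cd47 and Cd9) had a distal peak in the window in all 3 libraries, against 10.3% of protein-coding genes. Windows of these genes were 54.1, 131, 154 and 74.5 kb long, against a median of 57.4 kb over all genes, so that Cd44 and Cd47 had more room for a peak. Cxcr4, Itgb1 and Itgal had no distal peak in any library. Among genes with an own-TSS peak in every library, 58.7% likewise had no distal peak in any.

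After overlapping peaks of the libraries were merged, the windows of the 9 genes held 29 distal regions. Of these, 10 were found in at least 2 libraries, or 34.5%, close to the 35.5% of all distal regions. A further 19 were found in 1 library only. Of the 29 regions, 20 lay in introns of the reference transcript, 3 in an intron of another transcript, 5 upstream and 1 downstream. Distal summits held 9 to 29 fragments, compared with up to 81 at own-TSS peaks.

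**Figure D3:**
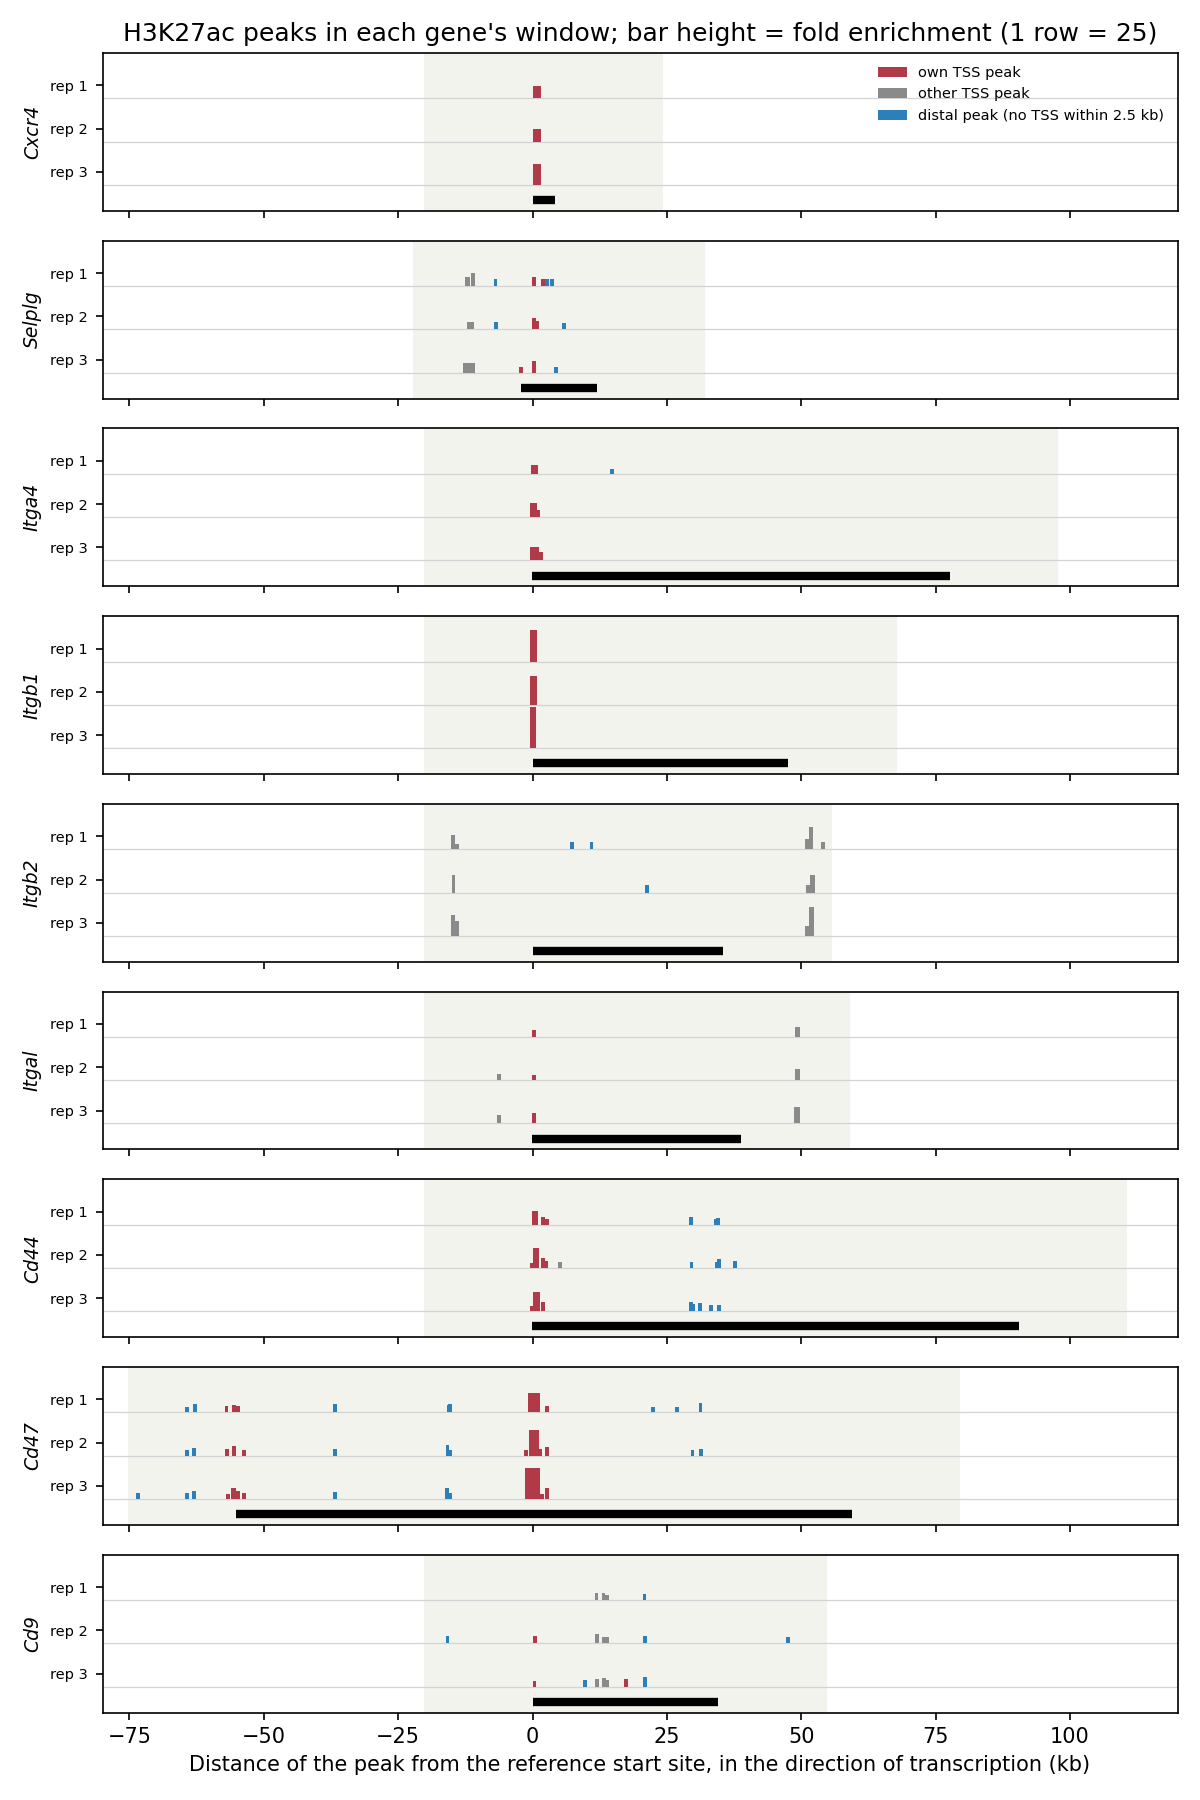
H3K27ac peaks of replicates 1, 2 and 3 in the window of each gene (grey background; black bar, gene body), placed by distance in kb from the reference TSS in the direction of transcription; bar height is fold enrichment, with 25 filling 1 row, and peaks under 0.7 kb are drawn 0.7 kb wide. Cxcr4 and Itgb1 show 1 own-TSS peak (red) in each library, Cd44 a group of distal peaks (blue) about 30 kb into the gene, and Cd47 distal peaks on both sides of its promoter.

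The 8 distal regions found in all 3 libraries belonged to Cd47 (5 regions), Cd44 (2) and Cd9 (1). They were 27.6% of the 29, against 16.7% of all distal regions, a difference that was not tested. The strongest of each gene is given by the 200 bases around its highest summit, from the RefSeq GRCm38 genome on the strand of the gene, since these are the distal sequences that repeated. Capitals mark motif matches.
Cd47, chr16:49839865-49840064, plus strand: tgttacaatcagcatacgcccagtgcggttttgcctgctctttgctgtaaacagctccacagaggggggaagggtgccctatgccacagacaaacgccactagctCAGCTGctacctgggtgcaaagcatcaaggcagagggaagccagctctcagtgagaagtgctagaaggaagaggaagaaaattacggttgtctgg
Cd44, chr2:102872134-102872333, minus strand: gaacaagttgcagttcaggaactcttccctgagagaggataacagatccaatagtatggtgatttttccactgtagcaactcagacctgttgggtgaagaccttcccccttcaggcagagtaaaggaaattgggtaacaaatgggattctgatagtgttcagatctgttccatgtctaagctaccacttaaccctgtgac
Cd9, chr6:125473835-125474034, minus strand: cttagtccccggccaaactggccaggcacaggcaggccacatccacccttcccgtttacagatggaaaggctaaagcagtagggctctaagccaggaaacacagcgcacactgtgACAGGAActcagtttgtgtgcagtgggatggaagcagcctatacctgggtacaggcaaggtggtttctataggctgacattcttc

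Compared with the Cxcr4 and Itgb1 promoters these windows were poor in CpG. They held 4, 0 and 3 CpGs, with ratios of observed to expected of 0.288, 0 and 0.206. The Itga4 and Cd44 promoters, with ratios of 0.234 and 0.257, lay within the range of these 3 windows. The median was 0.262 over all 2460 distal windows found in 3 libraries. The Cd47 window had a CAGCTG match, which 14.6% of those distal windows share, and the Cd9 window an ACAGGAA match (an extended ETS core), which 8.58% share. The Cd44 window held none of the 13 motifs searched, while that of the second Cd44 region held a CAGCTG. Of the other 4 Cd47 windows, 1 had GAGGAAGT, the PU.1 letters, found in 1.95% of distal windows. Another had an AP-1 match, found in 5.49%, and the GATA letters, found in 2.32%. The AP-1 motif was searched as TGANTCA. The Sp/KLF letters, present in 5 of the 6 matched promoters, was in none of the 8 distal windows and in 7.07% of all.

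Cd47 had 8, 7 and 6 distal peaks in replicates 1, 2 and 3, the most of the 9 genes. The strongest region found in every library, chr16:49839408-49840139, lay 15.7 kb upstream of the reference TSS in an intron of the longer transcript. Its fold enrichments were 4.11, 6.31 and 6.14, a mean of 5.52 ± 1.22 (SD, n = 3). A region 62.9 kb upstream of the reference TSS reached 4.78, 4.25 and 4.50, and one 36.8 kb upstream 4.78, 3.86 and 4.13. All 5 repeated Cd47 regions lay upstream of the reference TSS. Downstream of it, in introns 2 and 3, 1 region was found in replicates 1 and 2, with 5.66 and 4.04, and 3 regions in a single library.

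Cd44 had 3, 4 and 5 distal peaks, grouped in a stretch of the gene 29.4 to 37.7 kb past the TSS. The regions found in all 3 libraries were chr2:102866715-102867592, at 3.95, 5.17 and 3.70, and chr2:102871938-102872329, at 4.70, 3.25 and 5.19. Both lay in intron 1, with means of 4.27 ± 0.789 and 4.38 ± 1.01 (SD, n = 3). Which of the regions was the stronger changed between libraries, and 4 further regions in the group were found in 1 library each.

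Cd9 had a distal region whose fold enrichment was above that of its promoter peak in both libraries with a promoter peak. The values were 4.30 against 4.11 in replicate 2 and 5.53 against 3.43 in replicate 3. The 2 summits held 12 fragments each in replicate 2, and 16 against 10 in replicate 3. The difference thus rests on few fragments, close to the smallest numbers called. The region chr6:125473566-125474165, in intron 1 at 20.9 kb past the TSS, was found in all 3 libraries at 3.63, 4.30 and 5.53, a mean of 4.49 ± 0.965 (SD, n = 3). Another 3 regions in intron 1, 12.03 to 13.8 kb past the TSS, were also found in all 3 libraries, with means of 3.40, 4.25 and 4.58. In replicate 2, 2 of these 3 were below the promoter peak, at 3.40 and 3.83. These 3 lie within 2.5 kb of a start of the antisense gene Gm28809 and so were not counted as distal. Replicate 1, which lacked a Cd9 promoter peak, had all 4 of these intronic regions.

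Selplg had 3, 2 and 1 distal peaks, and none of its distal regions was found in all 3 libraries. One region 6.80 kb upstream of the reference TSS was found in replicates 1 and 2, at 3.89 and 4.19. Itga4 had 1 distal peak, in replicate 1, of 200 bp and a fold enrichment of 2.70. At a −log10 q of at least 5, Cd44 and Cd47 were the 2 genes left with a distal peak in every library, and 4 regions were left in at least 2.

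In Selplg, Cd44 and Cd47, which had both kinds of peak in each library, the strongest own-TSS peak was higher than the strongest distal peak in 3 of 3 libraries. For Selplg this depended on the start sites counted: with those of protein-coding transcripts alone, the peak near Gm17122 became distal, and the own-TSS peak was higher in 2 of 3 libraries, with 5.44 against 7.51 in replicate 1 and a mean of 0.18 ± 0.59 on the log2 scale (SD, n = 3). Within libraries the ratio for Cd47 was 1.97, 2.39 and 2.90, which is 1.26 ± 0.28 on the log2 scale (SD, n = 3, exact sign-flip p = 0.25, adjusted p = 0.25 over 3 genes). For Cd44 it was 1.65, 2.17 and 2.19, or 0.99 ± 0.23 on the log2 scale, and for Selplg 1.34, 1.61 and 2.11, or 0.73 ± 0.33, with the same p. The smallest p that 3 libraries allow is 0.25, so the direction is given as a count.

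Stitched stretches of peaks that rank as super-enhancers were then assigned to genes. Of the 9 genes, 1 was assigned a super-enhancer in at least 2 libraries, against 17.4% of genes with an own-TSS peak in at least 2 libraries. The assigned gene was Cd47, in all 3 libraries, with ranks of 928 of 1383, 665 of 1083 and 294 of 1190. Its stitched region was 3.75, 4.14 and 4.21 kb long and covered the promoter peaks, not the upstream distal regions. The paper used another program, Homer, and reported far fewer super-enhancers in at least 2 of the 3 samples than each library gave here. The cut used here was thus looser, and whether Cd47 is among the super-enhancers of the paper was not tested. With peaks stitched within 5 kb Itgb1 was called too, and within 20 kb Selplg and Itgal were, so those calls depend on the stitching distance. Without TSS-proximal peaks Cd47 was still called, in 2 libraries.

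The summed length of all peaks in the window showed where the acetylation of each locus lay. Cd47 had 6513, 7112 and 7816 bp, or 463 ± 42.2 bp per 10 kb of window (SD, n = 3). Selplg had the most per 10 kb, at 520 ± 153 bp, of which own-TSS peaks made up 24.9% to 34.0%, and peaks near the start of the antisense gene Gm17122 made up 42.9% to 66.9%. The median over all protein-coding genes was 78.7 bp per 10 kb and over those with an own-TSS peak in every library 237 bp. In Cxcr4 and Itgb1, at 348 ± 15.8 and 139 ± 12.7 bp per 10 kb, own-TSS peaks made up 100% in each library. In Itgal they made up 15.2% to 19.9% and in Itgb2 0%, the rest of Itgal lying at start sites of other genes.

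**Figure D4:**
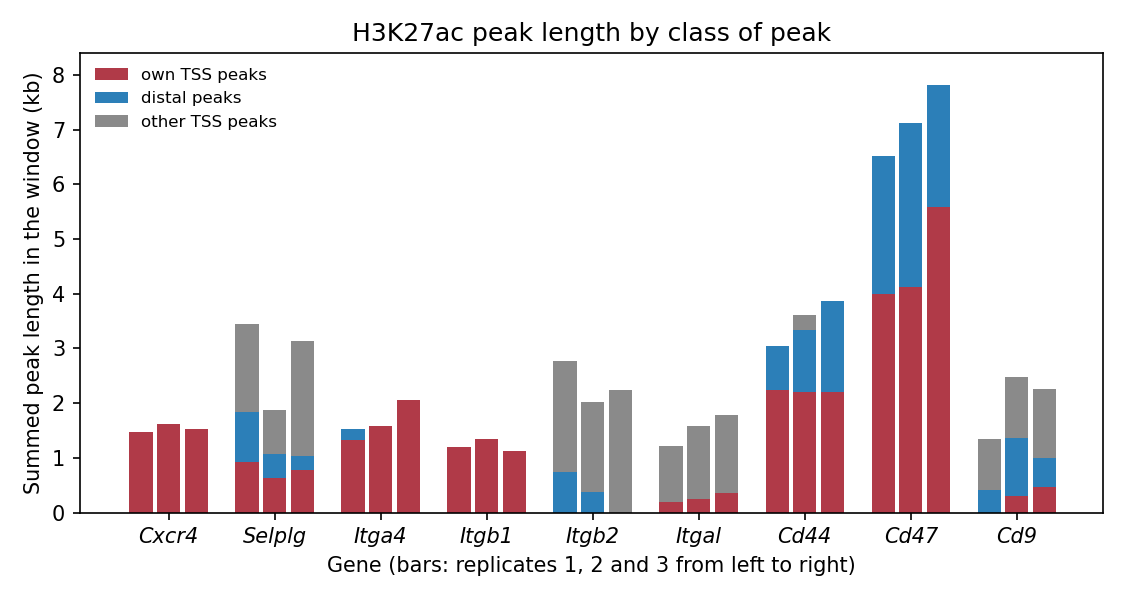
Summed length in kb (y axis, from 0) of own-TSS peaks (red), distal peaks (blue) and peaks at start sites of other genes (grey) in the window of each gene, with 1 bar for each of replicates 1, 2 and 3. Cxcr4 and Itgb1 are all red, Itgb2 has no red, and Cd47 has the longest bars at 6513 to 7816 bp.

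Genes that act with the 9 were taken from 7 lists of the pathway, 106 genes in all. Of these, 57 had an own-TSS peak in all 3 libraries, or 53.8%, 38 had none in any, and 11 had one in 1 or 2 libraries. Over all protein-coding genes the shares were 43.9% with a peak in all 3 libraries and 50.1% with none, and the counts for each list stand against these. The median of the 57 genes' mean fold enrichments was 8.25.

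Other integrin subunits were marked in 7 of 22 cases, and 14 had no own-TSS peak. Itga5, the fibronectin receptor subunit, stood highest at 10.1 ± 1.39 (SD, n = 3), followed by Itgav at 9.63 ± 1.40 and Itgb3 at 4.87 ± 1.91, while Itga1 and Itga2 had none. All other subunits were below Itgb1, whose lowest library, 16.8, was above the mean of Itga5. In contrast, 15 of 17 genes that activate integrins or link them to actin were marked. The small GTPases Rac1, Rap1b and Cdc42 stood at 35.7 ± 1.98, 32.4 ± 3.18 and 27.8 ± 5.50 (SD, n = 3), and the focal adhesion kinase gene Ptk2 had no own-TSS peak.

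Among genes that build selectin ligands, with L-selectin, 7 of 11 were marked. Glg1, a ligand of E-selectin, stood at 19.1 ± 1.59, the tyrosylprotein sulphotransferase gene Tpst2 at 12.1 ± 3.38 and the galactosyltransferase gene B4galt1 at 9.58 ± 1.62 (SD, n = 3), each above Selplg itself at 6.36. Podxl had none.

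Of other chemokine and sphingosine receptors, 2 of 16 were marked in all 3 libraries, as Cxcr4 was, and 10 in none. S1pr2 stood at 8.56 ± 1.92 and S1pr4 at 5.10 ± 0.536 (SD, n = 3), and Ackr3, the other receptor for Cxcl12, and Cxcr1 had none. Downstream of the receptors, 11 of 12 signalling genes were marked, led by the arrestin gene Arrb1 at 19.6 ± 4.16, the guanine exchange partner Elmo1 at 14.1 ± 2.78 and the G protein gene Gnai3 at 11.4 ± 1.76 (SD, n = 3).

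The niche side of these contacts was mostly unmarked. Of 13 niche ligands, 11 had no own-TSS peak in any library, among them Cxcl12 and Vcam1. Icam1 and Icam2, which bind the Itgal/Itgb2 integrin, were marked at 5.55 ± 1.41 and 4.92 ± 1.12 (SD, n = 3). Of tetraspanins and partners of Cd47 or Cd44, 13 of 15 were marked. The highest were Ezr, which ties Cd44 to actin, at 17.3 ± 2.49, the tetraspanin gene Cd82 at 15.3 ± 3.25 and Rdx at 15.2 ± 4.24 (SD, n = 3), and Ptgfrn had none. Cd9 was thus weakly marked beside Cd82.

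The genes whose pattern was most like that of Cxcr4 were 5730522E02Rik, Tmem64 and Adcy7. Likeness was the Euclidean distance over 6 values from 3 libraries, the log2 own-TSS fold enrichment and the log2 of the number of distal peaks plus 1. Distances were 0.0651, 0.0794 and 0.0806. All 3 had no distal peak in any library. Their fold enrichments in replicates 1, 2 and 3 were 7.09, 7.19 and 11.9 for 5730522E02Rik, 7.51, 7.28 and 12.03 for Tmem64 and 7.17, 7.61 and 11.7 for Adcy7. The highest value was in replicate 3 in each case, as for Cxcr4. Both features follow from the choice, since the genes were picked on these values. Replicate 3 also had the highest median over all genes with an own-TSS peak, 10.7 against 9.07 and 9.26 in replicates 1 and 2.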

How the data were processed

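H3K27ac was measured by ChIP-seq in 3 libraries of BcorΔE9-10 KL cells. Single-end reads were mapped by the authors to GRCm38 (mm10) using bowtie2. They then removed duplicates and called peaks per library with MACS2 2.1.1, after cutadapt 1.7, per the methods and the submitters' processing notes. The deposited lists hold, per summit, a fold enrichment (a ratio to local background), a −log10 p-value, a −log10 q-value and a score, which was not used. The largest q-value in the deposited lists was 0.0499, and the control used was not given in the sources used here.

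Repeated intervals were counted as 1 peak with its highest summit, and peaks sharing 1 bp between libraries were merged into regions. Gene models were GENCODE M21. TSSs of all transcripts were used, with the APPRIS principal transcript, otherwise transcript 201, as the reference. Fragments at summits were solved from fold enrichment and p together, which fitted 100% of summits and was tested on simulated data. Depth was then computed from the background by assuming 200 bp fragments. That length was not checked, and the depth scales with it. Poisson 95% intervals cover counting error only. Super-enhancers were stitched within 12.5 kb, ranked by summed fold enrichment times length and taken past a slope of 1. Two-sided exact sign-flip permutation tests over 3 libraries cannot go below p = 0.25. A p of 0.25 means only that all 3 differences had the same direction, whatever the spread between libraries, which may be technical.

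Genes named from the lists were the 3 highest with own-TSS peaks in all 3 libraries and the first 2 with none in any. The 9 genes, lists and tests were chosen with earlier results of these data known. Alternatives covered the peak threshold, TSS window, flank, transcript set, overlap, stitching and each replicate left out. Promoter sequences (250 bases) were from RefSeq, and motifs were searched on both strands. Analyses used Python 3.11.15, numpy 2.4.6 and scipy 1.17.1.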

Additional observations from a re-analysis of the deposited data

How the results depend on the processing

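The number of genes with an own-TSS peak in every library was 7, and stayed within 6 to 8 under the peak threshold, TSS window and transcript alternatives, with Cd9 gained at a 5 kb TSS window and Itgal lost at a −log10 q of at least 5. The number with a distal peak in every library fell from 4 to 2 at that threshold (Cd44 and Cd47) and to 2 with a TSS window of 5 kb (again Cd44 and Cd47). Distal regions found in at least 2 libraries fell from 10 to 4 at that threshold and rose to 21 with a flank of 50 kb, which adds sequence to every window, and Cxcr4 and Itgal then had a distal peak in every library. Genes assigned a super-enhancer rose from 1 to 2 with stitching within 5 kb, to 3 within 20 kb and to 2 when ranked by length. The cause was not tested. Leaving out each replicate gave 7 to 8 genes with own-TSS peaks, 4 to 5 with distal peaks, 8 to 10 distal regions and 1 gene with a super-enhancer, Cd9 being gained for own-TSS peaks without replicate 1 and Itgb2 for distal peaks without replicate 3. Mean own-TSS fold enrichments were unchanged in all 27 alternative values that could be computed (none for Itgal at the stricter threshold). The same strongest peak was kept in each, so these values are no check of the peak height. All 21 values with a replicate left out moved by less than 1 SD. A mean of 3 values cannot move further when 1 is left out, so this is no check either. The mean own-TSS to distal ratios of Selplg, Cd44 and Cd47 kept their direction. However, with start sites of protein-coding transcripts the log2 ratio of Selplg fell from 0.73 to 0.18 and turned to -0.47 in replicate 1. With a flank of 50 kb Itgal, which had no such ratio otherwise, had one of -0.58. The summed peak length moved by over 1 SD in 14 of 27 values under another threshold or flank. No paired analysis was possible because a block by replicate number needs at least 2 groups. Depth of 18.0 to 19.3 M reads left summits under 8 fragments uncalled, which limits Itgal, Cd9 and most distal peaks.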
